A study of Mus musculus with 10 samples.

Results

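The claudin family was examined by RNA-seq of whole kidneys from E13.5 mouse embryos. The 10 claudins considered here, Cldn1, Cldn3, Cldn4, Cldn5, Cldn6, Cldn7, Cldn8, Cldn10, Cldn11 and Cldn12, are the rows of the expression table with these symbols, out of 35 claudin symbols and 35663 entries in all. They were chosen by symbol, with their FPKM levels and group differences in all 10 libraries already known, so that every count over them describes this list and is not independent evidence. All 10 libraries came from embryos of the strain labelled C57/b6. The first group (n = 4) was labelled wild type. The Foxd1GC control group (n = 3), labelled Foxd1-Cre, carried the Foxd1GC allele, a knock-in at Foxd1 that makes Cre in stromal progenitors and their descendants. The Ntn1SPKO group (n = 3), labelled Foxd1-Cre; Ntn1/cc, carried the same allele and, as the label was read, was homozygous for a conditional allele of Ntn1, the secreted guidance cue netrin-1. Cre is therefore present in controls and mutants alike, it acts in the stromal lineage and not in the epithelium, and the insertion at Foxd1 is shared by both groups but absent from the wild-type group. How many embryos went into a library was not given in the sources used here, so that p-values measure the spread between these libraries.

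Claudins are small membrane proteins with 4 membrane-spanning segments that form the strands of tight junctions between neighbouring epithelial or endothelial cells. Some seal the space between cells, and others line pores through which chosen ions pass, so the mix of claudins in a tubule segment helps to set what leaks across it. In the kidney they are best known from the mature nephron and collecting duct, whose epithelia descend from the nephron progenitors and from the ureteric bud. At E13.5 the ureteric bud is a branching epithelial tree, the first nephrons are only beginning to form, and most other cells of the organ are mesenchymal or stromal.

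Levels are given in FPKM, fragments counted relative to the length of the sequence and the depth of the library, a scale per length on which different genes can be set side by side. An estimate from the steps between low FPKM values put the depth at about 26000000 to 33000000 fragments a library. The targeted gene, Ntn1, lay between 10.7 and 16.3 FPKM in the Ntn1SPKO libraries, below all Foxd1GC control values (24.2 to 51.5 FPKM) and all wild-type values (27.1 to 46.3 FPKM). The library Foxd1GC control replicate 3 stood apart in genes other than claudins too. It held Myog, a skeletal muscle regulator, at 30.0 FPKM, against 0.379 to 5.62 FPKM in the other 9 libraries, and Epcam, a membrane protein of epithelia, at 22.9 FPKM, against 57.1 to 81.7 FPKM. The values that rest most on this library are given with and without it, an alternative chosen after the data were seen. In whole kidneys, fewer cells of a type and less RNA per cell cannot be told apart.

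The claudins Cldn3, Cldn4, Cldn6, Cldn7 and Cldn8 are known from simple epithelia and made up most of the claudin RNA of these kidneys. Together they summed to 125 FPKM ± 13.03 (SD, n = 4) in wild-type, 99.03 ± 44.5 (n = 3) in Foxd1GC control and 117 ± 5.22 (n = 3) in Ntn1SPKO kidneys. That was 62.8%, 57.7% and 66.1% of the summed level of the 10 claudins in the 3 groups. Without Foxd1GC control replicate 3, whose own sum was 49.0 FPKM, the 2 other control libraries averaged 124 FPKM and 63.5%. The 10 claudins in turn held between 81.4% and 90.9% of the summed level of all 35 claudin symbols in each library.

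Cldn6, a claudin of embryonic epithelia and early stem cells, was the highest claudin in every group by its mean. It measured 39.9, 38.8, 40.8 and 37.7 FPKM in the wild-type libraries, 32.7, 41.6 and 15.6 FPKM in the Foxd1GC control libraries and 35.2, 37.2 and 36.5 FPKM in the Ntn1SPKO libraries. The wild-type libraries lay close together, the mutants were just below them without overlap, and the control group was spread widely by its replicate 3. Cldn7, a claudin of the ureteric and collecting duct epithelium that binds Epcam, followed with 30.6, 26.5, 43.0 and 32.1 FPKM in wild-type, 31.8, 36.5 and 9.21 FPKM in control and 28.2, 31.5 and 24.5 FPKM in mutant libraries. Its highest and lowest libraries differed 4.67-fold. The order of Cldn6 above Cldn7 held in 3 of 4 wild-type, 3 of 3 control and 3 of 3 mutant libraries, but the ranges of both genes overlapped in the wild-type and control groups and were separate in the mutants.

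Cldn8, which in the collecting duct works with Cldn4 in a chloride pathway between cells, came next among these 5. It measured 25.1, 22.7, 27.4 and 19.2 FPKM in wild-type, 20.2, 24.6 and 10.2 FPKM in control and 23.5, 23.5 and 22.0 FPKM in mutant libraries. Cldn4 measured 17.3, 17.8, 19.9 and 15.5 FPKM in wild-type, 18.2, 18.6 and 8.37 FPKM in control and 16.5, 18.2 and 17.8 FPKM in mutant libraries. Cldn8 stood above Cldn4 in 4 of 4 wild-type and 3 of 3 mutant libraries. Cldn3, a sealing claudin close to Cldn4 in sequence, measured 11.2, 10.5, 12.1 and 10.6 FPKM in wild-type, 11.1, 12.9 and 5.67 FPKM in control and 11.6, 12.5 and 12.2 FPKM in mutant libraries. For each of the 3 genes the control replicate 3 was the lowest of the 10 libraries and the mutant libraries lay within the wild-type range, except for Cldn3 in mutant replicates 2 and 3, which were just above it.

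**Figure D1:**
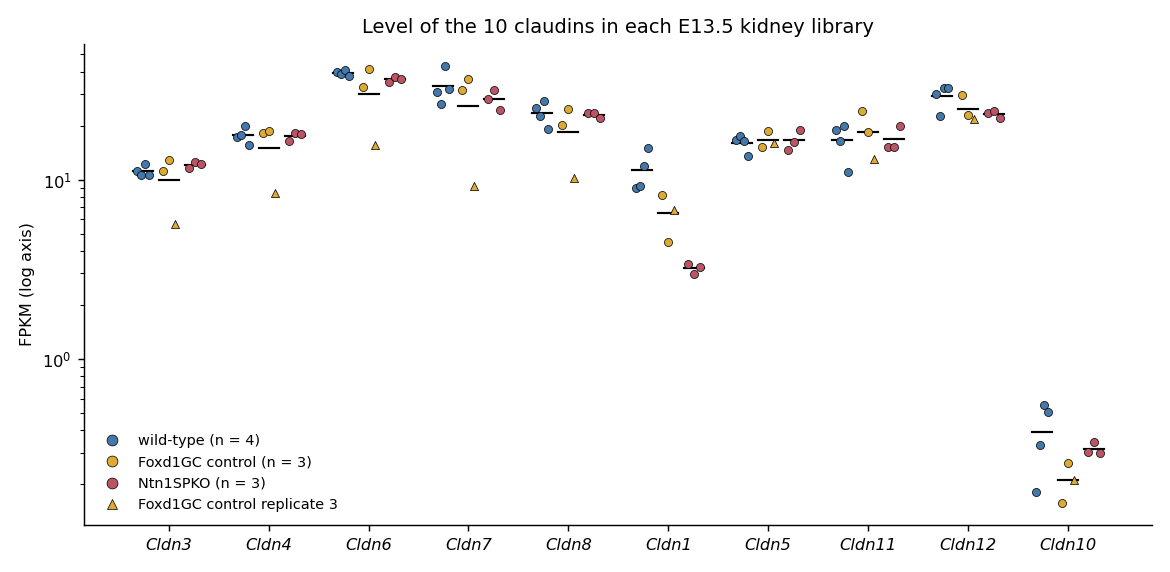
Level of each of the 10 claudins in FPKM (log axis) in every library, by group; each point is a library, short bars are group means and the triangle is Foxd1GC control replicate 3. Cldn1 is separate in the 3 groups, from high in wild-type to low in mutant, the triangle lies far below the other points for Cldn3, Cldn4, Cldn6, Cldn7 and Cldn8, and Cldn10 lies under 1 FPKM throughout.

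Some of these genes are also close in position and sequence. In GRCm38, Cldn4 (chr5:134945119-134946934, minus strand) and Cldn3 (chr5:134986214-134987472, plus strand) lie 39279 bases apart, each with its whole coding sequence in 1 exon. Their coding sequences, of 633 and 660 bases, are 69.8% identical. Cldn6 (chr17:23679249-23682446, plus strand) ends 137 bases from Cldn9 on the opposite strand, and these coding sequences are 73.5% identical. Cldn7 lies at chr11:69964779-69967885 on the plus strand and Cldn8, with a single exon, at chr16:88560828-88563183 on the minus strand. Despite the likeness, at most 1.11% of the 31-base words of a listed claudin's coding sequence occurred in another gene, so that sharing of reads between paralogs could touch little of these values.

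The promoters of Cldn3, Cldn4, Cldn6 and Cldn7 are shown because these 4 genes were low together in the control replicate 3, and that of Cldn1 because it followed another course. Each is a window of 300 bases, 250 before and 50 after a start site, from RefSeq on GRCm38.p6, written 5′ to 3′ on the gene's strand. Capitals mark the letters CAGGTG or, for the other strand, CACCTG, the E-box to which the repressors of the Snai and Zeb families bind. For Cldn7 the second of 2 windows is given. The windows are chr5:134985964-134986263 (plus strand) for Cldn3, chr5:134946885-134947184 (minus strand) for Cldn4, chr17:23679115-23679414 (plus strand) for Cldn6, chr11:69965171-69965470 (plus strand) for Cldn7 and chr16:26371790-26372089 (minus strand) for Cldn1.
Cldn3: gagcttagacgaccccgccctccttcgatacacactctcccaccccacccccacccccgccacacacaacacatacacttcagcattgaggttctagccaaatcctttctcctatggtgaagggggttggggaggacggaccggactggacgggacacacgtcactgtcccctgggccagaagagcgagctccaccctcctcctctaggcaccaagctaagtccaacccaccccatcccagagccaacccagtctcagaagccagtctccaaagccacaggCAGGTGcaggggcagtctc
Cldn4: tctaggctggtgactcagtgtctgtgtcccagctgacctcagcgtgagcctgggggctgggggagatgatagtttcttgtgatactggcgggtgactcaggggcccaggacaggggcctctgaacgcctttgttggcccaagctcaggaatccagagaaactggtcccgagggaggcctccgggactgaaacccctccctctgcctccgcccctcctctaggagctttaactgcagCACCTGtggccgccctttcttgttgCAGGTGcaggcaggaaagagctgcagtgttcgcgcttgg
Cldn6: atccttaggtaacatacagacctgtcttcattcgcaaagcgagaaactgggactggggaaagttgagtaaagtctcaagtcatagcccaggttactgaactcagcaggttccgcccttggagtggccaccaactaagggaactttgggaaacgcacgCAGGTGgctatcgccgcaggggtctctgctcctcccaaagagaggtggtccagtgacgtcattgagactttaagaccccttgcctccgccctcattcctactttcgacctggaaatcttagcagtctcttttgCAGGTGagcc
Cldn7: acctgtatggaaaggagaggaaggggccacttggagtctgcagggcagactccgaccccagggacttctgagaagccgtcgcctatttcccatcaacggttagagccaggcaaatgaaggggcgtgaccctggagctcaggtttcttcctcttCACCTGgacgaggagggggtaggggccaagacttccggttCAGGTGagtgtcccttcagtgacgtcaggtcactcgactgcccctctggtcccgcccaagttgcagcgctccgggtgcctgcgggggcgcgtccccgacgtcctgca
Cldn1: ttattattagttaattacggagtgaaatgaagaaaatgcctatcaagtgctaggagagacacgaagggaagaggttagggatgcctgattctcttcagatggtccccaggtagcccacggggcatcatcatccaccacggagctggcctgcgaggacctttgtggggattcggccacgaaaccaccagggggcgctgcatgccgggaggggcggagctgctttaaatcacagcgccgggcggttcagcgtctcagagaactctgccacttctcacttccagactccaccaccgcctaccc

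The E-box letters were found in Cldn3 (1 copy, at position 32 counted from the start), Cldn4 (2 copies), Cldn6 (2 copies) and Cldn7 (2 copies, both upstream). Among the 9 listed claudins with a window, these 4 had the letters, each in a single window, and Cldn1, Cldn5, Cldn10, Cldn11 and Cldn12 did not. The 9 claudins had 13 windows, and 20.2% of all 32851 promoter windows held the letters. A gene with several windows counts here if any of them holds a motif. Counts by gene and shares by window are therefore not on the same scale. The grainyhead motif AACNGGTT, bound by Grhl2, occurred in 2.09% of all windows and, of the 9 claudins, in Cldn5 alone, as AACAGGTT 20 bases before the start. The GC box GGGCGG, searched on both strands, occurred in at least 1 window of each of the 9 claudins and in 35.7% of all windows. A window each of Cldn7, Cldn10 and Cldn12 lacked it. No motif overlapped another. A match of letters is a description of the window and does not show that a factor was bound.

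Foxd1GC control replicate 3 held Cldn3 at 49.0%, Cldn4 at 46.9%, Cldn6 at 41.3%, Cldn8 at 43.4% and Cldn7 at 29.2% of the median of the other 9 libraries. Of the 9 claudins with a mean of at least 0.5 FPKM, 6 were lowest in this library, the sixth being Cldn12 at 89.9% of that median, against 24.1% of 14534 genes. Cldn5 at 97.4% and Cldn1 at 82.3% of the median of the others lay inside the range of the other libraries. Cldn6 and its close neighbour Cldn9 also parted here. Cldn9 measured 10.4 FPKM in this library and 7.98 to 10.7 FPKM in the other 9, while Cldn6 was at 15.6 FPKM, below 32.7 to 41.6 FPKM in the others.

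Other genes of the same epithelium were low in this library too. Of 12 listed ureteric bud genes, 10 were at their lowest there, among them Ret, the receptor of the branching signal Gdnf, at 25.2% of the median of the other libraries. Cdh1, the adherens junction protein E-cadherin, was at 22.7%, and Ocln, the tight junction protein occludin, at 30.8%. Of 12 transcription and splicing regulators of epithelia, 11 were lowest there, including Grhl2, an activator of epithelial junction genes, at 36.0%, Ehf at 29.9% and the splicing factor Esrp1 at 25.1%. By contrast 1 of 13 endothelial genes was lowest in this library, and Tjp1, the scaffold protein ZO-1, which many cell types make, was at 96.1%. Of 6 mesenchymal repressors of the Snai, Zeb and Twist families, Zeb1 (190% of the median of the others), Twist1 (187%) and Twist2 (231%) were highest there, as were 20.7% of all genes, while Snai2 (58.7%) and Zeb2 (62.2%) were lowest. The skeletal muscle gene Myog, named above, was highest there too. What these markers contribute to the claudin values of this library was not tested.

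**Figure D2:**
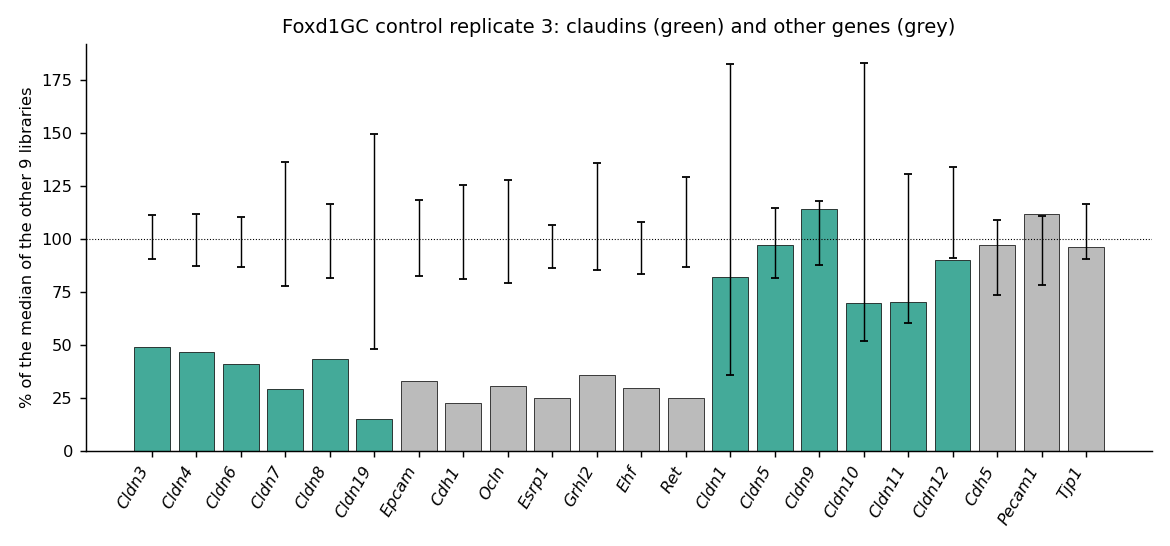
Level in Foxd1GC control replicate 3 as a percentage of the median of the other 9 libraries (bars from 0), for claudins (green) and other genes (grey); vertical lines show the range of the other 9 libraries on the same scale. The bars of Cldn3, Cldn4, Cldn6, Cldn7, Cldn8 and Cldn19 end below the lines of the other libraries, as do those of the epithelial genes, while Cldn1, Cldn5 and Cldn9 stay within them.

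Measured against the mean log2 level of the 12 ureteric genes, the 5 epithelial claudins varied far less than alone. The SD over the 10 libraries, on the log2(FPKM + 0.1) scale, went from 0.337 to 0.109 for Cldn3, from 0.353 to 0.124 for Cldn4, from 0.415 to 0.102 for Cldn6, from 0.398 to 0.136 for Cldn8 and from 0.599 to 0.300 for Cldn7. Relative to the 12 listed nephron epithelium genes the SDs were 0.300 for Cldn3, 0.286 for Cldn4, 0.172 for Cldn6, 0.231 for Cldn8 and 0.333 for Cldn7. These were also below the SDs alone, so that the lower spread was not particular to the ureteric genes. Cldn7 varied less relative to Epcam (SD 0.206) than relative to the ureteric genes. Relative to 13 endothelial genes the SDs of the 5 claudins were 0.367 to 0.657. The tracking of the ureteric genes rests largely on control replicate 3. Over the other 9 libraries, the 5 claudins had SDs of 0.104 to 0.241 alone and 0.0822 to 0.274 relative to the ureteric genes.

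The genes with the most similar profile to these claudins were those with the smallest SD of the log2 ratio over the 10 libraries, among 14509 genes. For Cldn3 the nearest was Cldn4 (SD 0.0890), followed by the desmosome gene Pkp2 and the keratin gene Krt8. For Cldn4 they were the keratin gene Krt18 (SD 0.0831), Rnf128 and Krt8. For Cldn6 they were Ripk4 (SD 0.0757), the membrane protease gene Prss8 and Nudt12, for Cldn7 Mal2 (SD 0.178), Tmed6 and the protease inhibitor gene Spint1, and for Cldn8 the adhesion gene Nectin4 (SD 0.0779), Krt18 and Pctp. These likenesses also rest on control replicate 3. Without it Cldn4 was only the 311th nearest gene to Cldn3 (SD 0.0928), Krt18 the 316th to Cldn4, Ripk4 the 101st to Cldn6 and Mal2 the 1006th to Cldn7, while Nectin4 was the 11th to Cldn8.

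**Figure D3:**
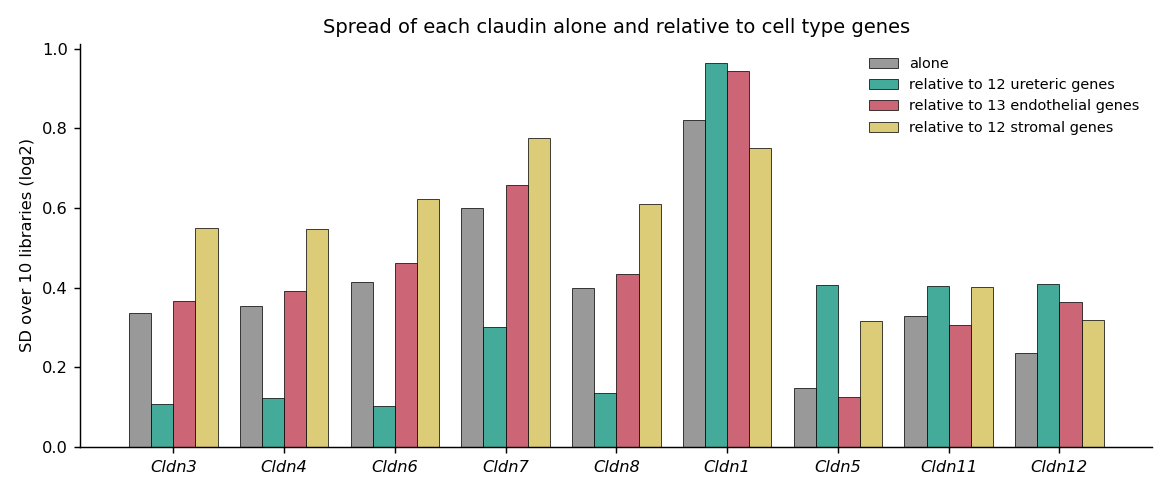
SD over the 10 libraries, on the log2 scale, of each of 9 claudins alone (grey) and relative to the mean log2 level of ureteric, endothelial and stromal genes (colours). For Cldn3, Cldn4, Cldn6, Cldn7 and Cldn8 the bar relative to the ureteric genes is the lowest, for Cldn5 the bar relative to the endothelial genes is (0.125, but 0.130 against 0.117 for the ureteric genes without Foxd1GC control replicate 3), and for Cldn1 all 4 bars are high, between 0.750 and 0.964.

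Cldn5, the main claudin of endothelial tight junctions, behaved differently. It lies in a single exon at chr16:18776847-18778262 on the plus strand of GRCm38. It measured 16.7, 17.4, 16.5 and 13.47 FPKM in wild-type, 15.2, 18.6 and 16.1 FPKM in control and 14.7, 16.2 and 18.9 FPKM in mutant libraries. The groups overlapped fully, and its highest and lowest libraries differed 1.40-fold, the smallest ratio among the 10 claudins. Its SD over the 10 libraries was 0.148 on the log2 scale alone, 0.125 relative to the endothelial genes and 0.407 relative to the ureteric genes. The gap between these rests on control replicate 3. Over the other 9 libraries the SD was 0.157 alone, 0.130 relative to the endothelial genes and 0.117 relative to the ureteric genes. The genes nearest to it in profile were Tmem88 (SD 0.0463), Emcn, the endothelial sialomucin endomucin (SD 0.0574), and Klhl4 (SD 0.0656). Without control replicate 3 Tmem88 remained the nearest, Emcn was the 4th and Klhl4 the 7th.

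Cldn11, known from the tight junctions of myelin and of Sertoli cells in the testis, lay beside Cldn5 and Cldn4 in level. It measured 18.9, 16.5, 19.9 and 11.1 FPKM in wild-type, 23.97, 18.43 and 12.96 FPKM in control and 15.12, 15.1 and 19.99 FPKM in mutant libraries. Values varied as much within groups as between them. In the wild-type and mutant groups the ranges of Cldn4, Cldn11 and Cldn5 overlapped, so that no order among these 3 could be given. Nearest to Cldn11 in profile was Penk, which encodes the opioid precursor proenkephalin and is made in renal stroma. Penk ranged from 17.9 to 35.2 FPKM, and the SD of its ratio to Cldn11 was 0.101, against 0.328 for Cldn11 alone. It remained the nearest gene without control replicate 3 (SD 0.107). Next were Ncald (SD 0.152) and Enpp2 (SD 0.174), which were the 11th and 21st without that library.

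Cldn12, a widely made claudin without the usual binding motif for junction scaffolds at its end, measured 30.2, 22.7, 32.3 and 32.2 FPKM in wild-type, 29.6, 23.0 and 21.7 FPKM in control and 23.5, 24.1 and 22.0 FPKM in mutant libraries. Of the 4 wild-type libraries 3 lay above all mutants and replicate 2 lay among them. Cldn10, which in the mature thick ascending limb forms a sodium pore, was the lowest of the 10. It measured 0.181, 0.333, 0.552 and 0.504 FPKM in wild-type, 0.157, 0.262 and 0.211 FPKM in control and 0.302, 0.342 and 0.300 FPKM in mutant libraries. Its mean over the libraries was 0.314 FPKM, under the limit of 0.5 FPKM for the test across all genes, and it was not tested.

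Outside the list, 3 of the other 25 claudin symbols had a mean of at least 0.5 FPKM. Cldn9, known from the inner ear, ranged from 7.98 to 10.7 FPKM over the 10 libraries. Cldn34c1 ranged from 9.23 to 12.7 FPKM, but 95.0% of the 31-base words of its coding sequence occur in other genes, Cldn34c2 and Cldn34c3 among them, so that its level is uncertain. Cldn19, which works with Cldn16 in magnesium uptake of the thick ascending limb, measured 1.19, 1.46, 1.23 and 0.840 FPKM in wild-type, 0.618, 1.02 and 0.147 FPKM in control and 0.969, 0.978 and 0.469 FPKM in mutant libraries. The pore claudin of the proximal tubule, Cldn2, had a mean of 0.183 FPKM and Cldn16 had one of 0.0443 FPKM. A further 10 symbols were listed at 0 in every library, all of them of the Cldn34 group except the pseudogene Cldn25-ps.

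Among the 10 claudins, Cldn1 had the largest ratio between its highest and lowest libraries, 5.06-fold. It is a sealing claudin, needed for the water barrier of the skin and present in the parietal cells around the glomerulus. It lies at chr16:26356642-26371841 on the minus strand of GRCm38, with 4 exons that all hold coding sequence. It measured 9.03, 9.17, 11.96 and 15.0 FPKM in the wild-type libraries, 8.22, 4.49 and 6.77 FPKM in the Foxd1GC control libraries and 3.37, 2.97 and 3.27 FPKM in the Ntn1SPKO libraries. Every wild-type library lay above every control library, and every control library above every mutant. Means were 11.3 FPKM ± 2.83 (SD, n = 4), 6.49 ± 1.88 (n = 3) and 3.20 ± 0.208 (n = 3). Cldn1 made up 5.73% ± 1.56 of the summed level of the 10 claudins in wild-type, 4.30% ± 2.05 in control and 1.81% ± 0.165 in mutant kidneys.

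Against wild-type, Cldn1 was 3.38-fold lower in Ntn1SPKO kidneys (log2 difference −1.76, SE 0.183, adjusted p = 0.0491 by limma, lower in 3 of 3 mutant libraries). Its limma p was 1.7e-05, 5th of 14432 genes tested, and the exact permutation test gave p = 0.0286, the smallest that 3 against 4 libraries allow. The settings that lost the call, at an adjusted p under 0.1 and at least a 2-fold change, are all given at the end. Among them, it was lost when Ntn1SPKO replicate 2 (adjusted p = 0.203) or replicate 3 (adjusted p = 0.179) was left out, with a pseudocount of 1 FPKM (adjusted p = 0.101) and when all 10 libraries were fitted together (adjusted p = 0.192). The adjusted p ranged from 0.0202 to 0.221 over the alternatives other than embryo sex in the model, which is given below. The log2 difference stayed between −1.87 and −1.52 over all alternatives.

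Against the Foxd1GC control group, the comparison in which only the Ntn1 allele differs by label, Cldn1 was 1.94-fold lower in Ntn1SPKO kidneys (log2 difference −0.96, SE 0.224). The limma p was 0.00455 and the adjusted p 0.447, so that it did not pass. The exact permutation test gave p = 0.1, the smallest possible with 3 against 3 libraries. Leaving out Foxd1GC control replicate 2, the control library with the lowest Cldn1, gave a log2 difference of −1.20 and an adjusted p of 0.0653, which passes. The adjusted p ranged from 0.0653 to 0.742 over the alternatives other than embryo sex in the model. Foxd1GC control kidneys were in turn 1.74-fold below wild-type (log2 difference −0.80, SE 0.249, limma p = 0.013, adjusted p = 0.665, exact permutation p = 0.0286). This difference did not pass either, although the groups did not overlap.

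Y-linked RNA was present in all 3 Ntn1SPKO libraries, in wild-type replicate 3 and in control replicate 2 and was near 0 in the others, so that the embryos' sex is not balanced between groups. Among the libraries with Y-linked RNA Cldn1 was at 11.96 FPKM in the wild-type, 4.49 FPKM in the control and 2.97 to 3.37 FPKM in the mutant libraries. Among those without it, Cldn1 was at 9.03 to 15.0 FPKM in 3 wild-type and 6.77 to 8.22 FPKM in 2 control libraries. No mutant library lacked Y-linked RNA, so that mutants could be placed only in the first set, beside 1 wild-type and 1 control library. With the sex of the embryos as a term in the model, the log2 difference of Cldn1 was −1.87 between mutant and wild-type. It was −0.48 between mutant and control. In these fits the mutants are in effect set against the single library with Y-linked RNA of the other group. Only the size of the difference is therefore given.

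The order of wild-type above control above mutant, with no overlap at either step, held for 4 of 14534 genes (0.0275%). Cldn1 was second of these by its fold, with 3.53-fold between wild-type and mutant means, after Il13ra2, a receptor of interleukin 13, with 4.32-fold. The others were Slitrk6 (2.07-fold) and Katnbl1 (1.1-fold). The opposite order held for 5 genes (0.0344%). Each order held for 16 genes (0.11%) without control replicate 3. Since this order was seen first and counted afterwards, the count is a description.

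The genes nearest to Cldn1 in profile were Igfbp6, a binding protein of insulin-like growth factors, Il13ra2, and Wif1, a secreted inhibitor of Wnt ligands. Cldn1, Cldn8 and Cldn12 were added to this search after their values had been seen. Igfbp6 measured 8.96, 8.15, 13.9 and 13.4 FPKM in wild-type, 7.94, 5.36 and 8.31 FPKM in control and 3.93, 2.97 and 3.61 FPKM in mutant libraries. Both genes had their highest mean in wild-type and their lowest in mutant kidneys, but ordered the libraries differently within the wild-type and the control group. The SD of their log2 ratio over the 10 libraries was 0.173, against 0.821 for Cldn1 alone. The SD was 0.191 for Il13ra2 and 0.294 for Wif1. Without control replicate 3 Igfbp6 and Il13ra2 remained the nearest and Wif1 was the 6th. None of these 3 was on the lists of epithelial genes used here, and the cells that make them were not tested. Relative to the 12 ureteric genes Cldn1 varied more (SD 0.964) than alone. The same held relative to the nephron epithelium (SD 0.902), endothelial (SD 0.945) and nephron progenitor genes (SD 0.844). Relative to the stromal (SD 0.750) and podocyte genes (SD 0.795) Cldn1 varied slightly less than alone.

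Some genes of other cells also had lower means in mutant than in wild-type kidneys, without passing. Foxd1, which marks stromal progenitors and is the site of the Cre insertion, had means of 14.6 FPKM in mutant and 24.4 FPKM in wild-type kidneys (adjusted p = 0.193). Postn, a matrix gene of stroma, was at 46.5 and 102 FPKM (adjusted p = 0.203), and at 128 FPKM in controls, above the wild-type mean. Of 12 stromal genes 3 had groups that did not overlap and an unadjusted p under 0.05, all lower in mutants, against 3.54% of all genes lower without overlap and 3.31% lower at that p, while 4 of the 12 had a higher mean log2 level in mutants. Of 10 skeletal muscle genes 7 were lower in mutants at an unadjusted p under 0.05, against the same 3.31%, with Myog at 0.663 and 3.33 FPKM. Of 12 nephron epithelium genes 6 were lower and 2 higher in mutants at an unadjusted p under 0.05, against 5.76% of all genes in either direction, and none of the 12 was called. Relative to Epcam, the log2 ratio of Cldn1 averaged −4.36 in mutant, −2.83 in control and −2.69 in wild-type kidneys, with mutants below all other libraries. The control and wild-type ratios overlapped. The control mean was −3.37 without its replicate 3, where Epcam was low. The part of these genes' cells in the Cldn1 values was not tested.

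**Figure D4:**
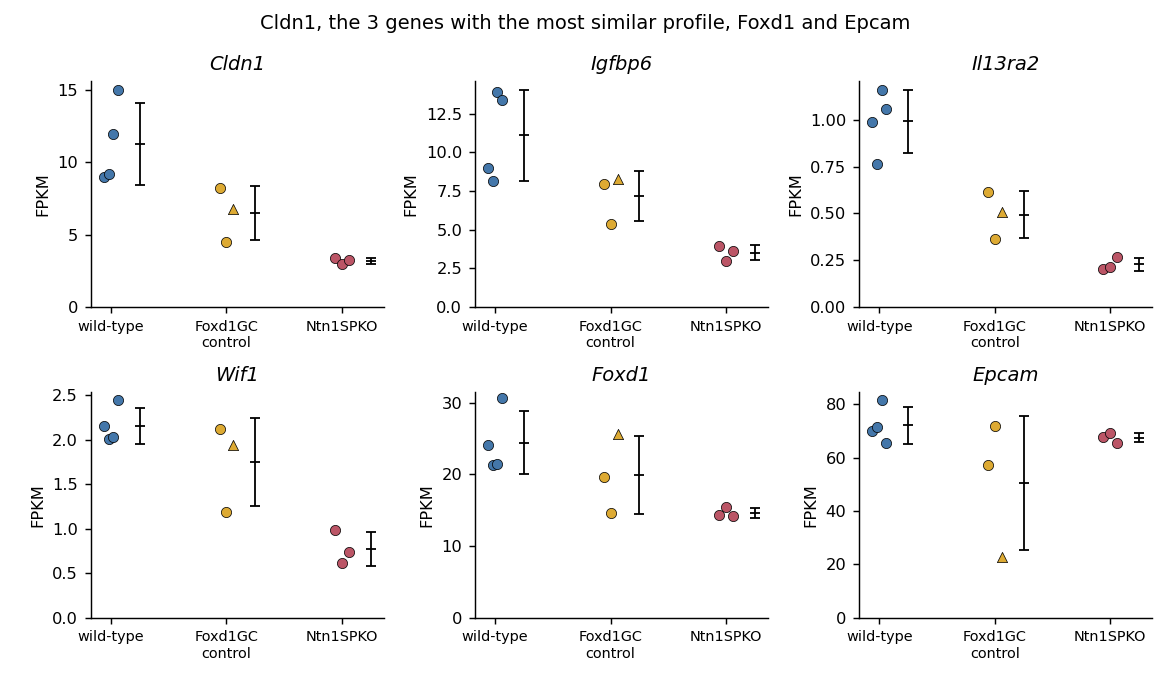
FPKM of Cldn1, of the 3 genes nearest to it in profile (Igfbp6, Il13ra2 and Wif1), of Foxd1 and of Epcam in each library by group, with the group mean ± SD beside the points and Foxd1GC control replicate 3 as a triangle; all axes start at 0. Cldn1, Igfbp6, Il13ra2 and Wif1 are lowest in the 3 Ntn1SPKO libraries, whereas Epcam there lies within the range of the wild-type libraries.

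Across the list, 0 of 9 claudins tested were called between Ntn1SPKO and Foxd1GC control kidneys, against 0.055% of 14550 genes, with Cldn1 lower at an unadjusted p under 0.05 against 5.17% of genes. Between Ntn1SPKO and wild-type kidneys 1 claudin, Cldn1, was called, against 0.0485% of 14432 genes. Between Foxd1GC control and wild-type kidneys 0 claudins were called, against 0.00685% of 14594 genes, with Cldn1 lower at an unadjusted p under 0.05 against 3.23% of genes. These comparisons share libraries and are not independent. Groups without overlap and lower were found for Cldn1 in all 3 comparisons, and for Cldn6 between mutant and wild-type kidneys, against 8.91%, 3.54% and 4.04% of genes. Without control replicate 3 there were 2 such claudins between mutant and control kidneys, Cldn1 and Cldn7. The shares of genes just given are for all libraries of the groups, and none is given without that library. The gap for Cldn7 was narrow. Its highest mutant library, replicate 2, was at 31.5 FPKM and the lower remaining control library, replicate 1, at 31.8 FPKM. The median log2 difference of the 9 claudins was 0.303, −0.0252 and −0.308 in the 3 comparisons, against 0.0067, 0.0034 and −0.0072 for all genes tested.

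Both medians that involve the control group changed sign without its replicate 3. Without that library the median was −0.073 between mutant and control and 0.0656 between control and wild-type kidneys. The log2 differences between mutant and control then went from 0.37 to 0.01 for Cldn3, from 0.30 to −0.07 for Cldn4, from 0.39 to −0.02 for Cldn6, from 0.34 to −0.29 for Cldn7 and from 0.42 to 0.05 for Cldn8. Their SEs went from between 0.294 and 0.507 to between 0.0732 and 0.126. None of these 5 passed with or without the library, in a test by limma.

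Between mutant and wild-type kidneys, where that library takes no part, the 5 epithelial claudins had log2 differences of 0.12 for Cldn3 (SE 0.0750), −0.01 for Cldn4 (SE 0.0933), −0.11 for Cldn6 (SE 0.0566), −0.22 for Cldn7 (SE 0.166) and −0.03 for Cldn8 (SE 0.118). Cldn6 had the smallest p among them, 0.0809 by limma with an adjusted p of 0.941, and an exact permutation p of 0.0571. Cldn12 was 1.25-fold lower in mutants (log2 difference −0.32, SE 0.129, limma p = 0.0376, adjusted p = 0.813, exact permutation p = 0.114), with overlapping groups. With embryo sex in the model, the mutants are set against wild-type replicate 3, the library highest in Cldn7. The log2 difference of Cldn7 in that fit was −0.62, short of a 2-fold change. The log2 differences of Cldn5 and Cldn11 were 0.05 (SE 0.119) and 0.03 (SE 0.211). An unadjusted p under 0.05 was reached by 2 of the 9 claudins, Cldn1 and Cldn12, both lower in mutants, against 3.31% of genes.

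**Figure D5:**
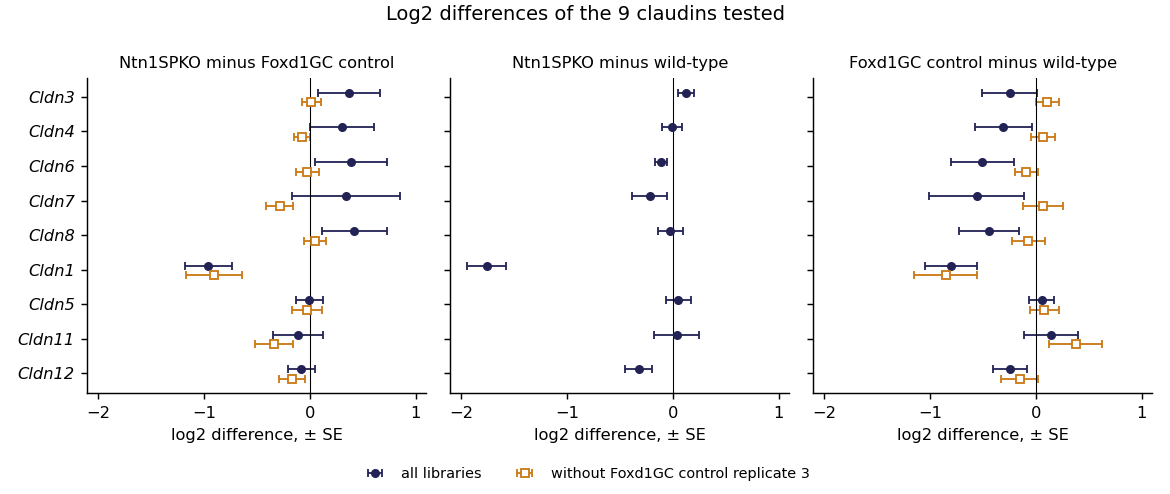
Log2 difference ± SE of the 9 claudins tested, for mutant minus control, mutant minus wild-type and control minus wild-type; filled points use all libraries and open squares leave out Foxd1GC control replicate 3. Cldn1 lies at or below −0.80 in each panel, and the 5 epithelial claudins sit near 0 once that control library is left out, except Cldn7 at −0.29 between mutant and control.

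The proteins that work with claudins in the junction were taken from a list of known partners. Of 24 such genes tested between mutant and wild-type kidneys, among them Ocln, Tjp1, Marveld2 (tricellulin), Lsr, the angulin that recruits it to the corners where cells meet, and Crb3, a polarity protein, none was called by limma and none had an unadjusted p under 0.05, against 0.0485% and 5.76% of all genes, with a median log2 difference of 0.0392. Between mutant and control kidneys 23 were tested, again with 0 called and 0 at an unadjusted p under 0.05 by limma, against 0.055% and 10.7% of all genes, and 3 were higher in mutants without overlap, against 11% of genes. Their median log2 difference was 0.227, and 12 of 24 were lowest in control replicate 3, where Marveld2 was at 53.9%, Lsr at 53.0% and Crb3 at 56.4% of the median of the other libraries. Between control and wild-type kidneys the median of 24 was −0.173, with 0 called and 0 at an unadjusted p under 0.05 by limma, against 0.00685% and 7.06% of all genes. Without control replicate 3 the medians were 0.1 between mutant and control and −0.0384 between control and wild-type kidneys. No partner was then called by limma, against 0.138% of all genes in the first of these comparisons and 0.0207% in the second. An unadjusted p under 0.05 by limma was reached by 0 partners in the first, against 7.23% of all genes. In the second it was reached by 1 of 24, Magi1, lower in controls, against 3.7% of all genes.

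Of 12 epithelial regulators, Grhl2, Ehf and Esrp1 among them, none was called and none had an unadjusted p under 0.05 by limma in any of the 3 comparisons. Of all genes, 0.055%, 0.0485% and 0.00685% were called and 10.7%, 5.76% and 7.06% reached that p, in the order given next. The median log2 differences of these regulators were 0.676 between mutant and control, 0.0295 between mutant and wild-type and −0.581 between control and wild-type kidneys. Leaving out control replicate 3, in which 11 of the 12 were lowest, gave 0.201 for the first and −0.0696, over 13 genes tested, for the last. Of 6 mesenchymal repressors, of the Snai, Zeb and Twist families, Twist1 was lower in mutants than in wild-type kidneys (14.2 ± 1.29 against 20.2 ± 4.21 FPKM, SD, adjusted p = 0.686 by limma). Its groups did not overlap and its unadjusted p was under 0.05, but it did not pass. Of all genes 3.54% were lower without overlap and 3.31% lower at that p in this comparison. The other 5, Snai1, Snai2, Zeb1, Zeb2 and Twist2, had no unadjusted p under 0.05 in any comparison.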

How the data were processed

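RNA-seq of whole E13.5 kidneys gave 10 libraries, grouped by their labels as wild-type (n = 4), Foxd1GC control (n = 3) and Ntn1SPKO (n = 3). The authors estimated transcript abundance with Salmon against coding sequences of Ensembl GRCm38 and deposited 1 table of FPKM values for 35663 entries. The submitters' processing notes also name bcl2fastq 2.17.1.14. Counts were not used here, so the count test of the study (DESeq2) was not run. Salmon assigns fragments to transcripts by estimate, so near-identical genes can share them. The FPKM carry no exact depth, and the depth given is a rough estimate.

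A pseudocount of 0.1 FPKM was added, the values were turned into log2, and limma (version 3.58.1, R version 4.3.3) was fitted with an intensity trend and read two-sided, in the libraries of the 2 groups compared, over all entries with a mean of at least 0.5 FPKM in them, with Benjamini-Hochberg adjustment over all of these. Fold changes are on this scale, which understates changes of low genes. A call needed an adjusted p under 0.1 and at least a 2-fold change, the limits of the study. Single claudins were also compared by an exact two-sided permutation test over libraries, which cannot go below p = 0.1 with 3 against 3 libraries or 0.0286 with 3 against 4. The limma step was tested on simulated data. The replicate numbers did not pair the libraries (correlation of same-numbered deviations between −0.0388 and 0.0785). Likeness of profile was the SD of the log2 ratio of 2 genes over the libraries.

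The claudins, the gene lists and the rules were chosen with earlier results of these data known. Besides the 10 claudins, the text names other claudin symbols, genes of each list with an unadjusted p under 0.05 and no overlap of groups (at most 4 a comparison), the 3 genes nearest in profile, and defining genes of a cell type or library beside a claudin. Slitrk6, Katnbl1 and the neighbours of Cldn1, Cldn8 and Cldn12 were named after their values were seen. Alternatives were another pseudocount, filter, scaling or model, sex of the embryo, a replicate block and each library left out in turn. Gene positions are from GENCODE M21 (GRCm38), promoters from RefSeq (GRCm38.p6), with windows for 9 of the 10 claudins.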

Additional observations from a re-analysis of the deposited data

Results flagged for a closer look

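Among the wild-type libraries 2 claudin values stood apart from the other 3 libraries by Dixon's test, which flags about 1 in 20 groups by chance. Cldn23 measured 2.04 FPKM in wild-type replicate 2, against 0.0609 to 0.158 FPKM in the other wild-type libraries and 0.142 to 0.258 FPKM in the Foxd1GC control and Ntn1SPKO libraries. Its coding sequence shares no 31-base word with another gene. Cldn34c1 measured 10.1 FPKM in wild-type replicate 1, against 10.8 to 10.9 FPKM in the other wild-type libraries, a narrow gap in a gene whose level is uncertain because most of its coding sequence is shared with its paralogs. No listed claudin was set apart in this way. Groups of 3 were not tested, which leaves out Foxd1GC control replicate 3.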

How the results depend on the processing

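Of the 9 tested claudins, only Cldn1 gained or lost a call under any alternative. Its call between mutant and wild-type kidneys, 1 claudin, went to 0 with a pseudocount of 1 FPKM (log2 difference −1.52), with all 10 libraries in 1 fit (−1.76), with the replicate block (−1.61, adjusted p = 0.221) and without Ntn1SPKO replicate 2 or 3, so that the count without a library ran from 0 to 1. Between mutant and control kidneys the count without a library also ran from 0 to 1, with 1 only without control replicate 2. The block changed no other call. Embryo sex as a covariate moved the median log2 difference of the 9 claudins to −0.151 between mutant and control and −0.251 between mutant and wild-type kidneys. Without a library the median ran from −0.505 to 0.0656 between control and wild-type.

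The remaining changes are changes of sign in log2 differences that passed in no setting, and the cause was not tested. Between mutant and control kidneys these were, with embryo sex, Cldn3 (−0.0927), Cldn4 (−0.0912), Cldn6 (−0.196), Cldn7 (−0.385), Cldn8 (−0.0977) and Cldn12 (0.0106), and with equal totals Cldn5 (0.0316). Leaving out a library in turn gave −0.073 to 0.5 for Cldn4, −0.101 to 0.0809 for Cldn5, −0.0236 to 0.683 for Cldn6, −0.285 to 0.702 for Cldn7, −0.34 to 0.101 for Cldn11 and −0.17 to 0.0537 for Cldn12. Between mutant and wild-type kidneys they were Cldn3 with embryo sex (−0.00744), Cldn4 (0.0505) and Cldn8 (0.0307) with equal totals, Cldn5 (−0.0286) and Cldn11 (−0.147) with the block, and Cldn11 with embryo sex (−0.262). Leaving out a library gave −0.0653 to 0.0554 for Cldn4, −0.0459 to 0.136 for Cldn5, −0.119 to 0.0502 for Cldn8 and −0.147 to 0.133 for Cldn11. Between control and wild-type kidneys they were Cldn5 (−0.0245) and Cldn11 (−0.0383) with the block. Leaving out a library gave −0.478 to 0.108 for Cldn3, −0.505 to 0.0676 for Cldn4, −0.0264 to 0.115 for Cldn5, −0.922 to 0.0656 for Cldn7 and −0.067 to 0.374 for Cldn11. With 3 or 4 libraries a group and no counts, small differences were not detectable.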

Other observations

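Of the claudins outside the list, 3 known from the mature nephron were low at E13.5, chosen here after their values were seen. Cldn2, of the proximal tubule, lay between 0.0485 and 0.190 FPKM in 9 libraries and at 0.854 FPKM in Foxd1GC control replicate 1. Cldn16 was listed at 0 in 5 of 10 libraries and Cldn14 in 8 of 10.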
